A study of Mus musculus with 6 samples.

Results

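Hopx is the gene described here, 1 of 18193 mouse genes with a single symbol on the arrays, and it was taken by its symbol in the platform annotation, which assigns it 2 of the 45101 probe sets. It was picked from earlier results on the signals of the same arrays, which were high in 1 wild-type array and low in the other two. Its own levels are therefore given as a description, with no test. The 6 one-colour Affymetrix arrays hold CD4+ Foxp3+ regulatory T cells (Treg) sorted from the mesenteric lymph node, and all mice were 4 to 6 weeks old.

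The induced Treg (iTreg, 3 arrays) came from Balb/c TBmc mice with a Foxp3 GFP reporter that had received 1% ovalbumin by mouth for 1 week, and the sorted cells carry the cell type label Nrp-. TBmc mice have a single transgenic T cell receptor against ovalbumin and a fixed B cell receptor, and their Treg arise outside the thymus after antigen is fed. The total Treg (WT, 3 arrays) came from Balb/c wild-type Foxp3 GFP mice with no feeding named. Receptor, feeding, genotype and gate differ together between the groups and cannot be told apart. The labels do not say whether replicates were separate mice or pools, so the spread between arrays may be technical.

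The labels of 2 arrays depart from their group. WT replicate 1 is titled total Treg but has the same Nrp- cell type label as the iTreg, while WT replicates 2 and 3 have no Nrp term. The strain label of iTreg replicate 1 names neither TBmc nor the reporter. WT replicate 1 is therefore given apart from WT replicates 2 and 3 throughout.

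Hopx encodes a very small protein made of little more than a homeodomain, and this homeodomain lacks the residues that bind DNA. It acts by binding other proteins: in the heart it restrains serum response factor (SRF) and recruits histone deacetylases. It marks slow-cycling stem cells of the gut and type I cells of the lung alveolus. In mouse T cells it is known from effector and memory cells of the Th1 type and from Treg induced in the periphery by dendritic cells, where it is needed for their persistence and holds down the AP-1 genes Fos and Jun.

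In the GRCm38.p6 annotation Hopx lies on chromosome 5, on the minus strand, at chr5:77086986-77115123. RefSeq gives 3 transcripts, and the promoter table holds 2 start sites for the gene. Their windows are shown because they carry the one sequence feature found here that touches a known Hopx partner, and because the start in use cannot be read from these arrays. Each window holds 250 bases before and 50 after the start, 5′ to 3′ on the minus strand, from RefSeq, and capitals mark a CArG box, the site that SRF binds.
Hopx upstream start, chr5:77115074-77115373: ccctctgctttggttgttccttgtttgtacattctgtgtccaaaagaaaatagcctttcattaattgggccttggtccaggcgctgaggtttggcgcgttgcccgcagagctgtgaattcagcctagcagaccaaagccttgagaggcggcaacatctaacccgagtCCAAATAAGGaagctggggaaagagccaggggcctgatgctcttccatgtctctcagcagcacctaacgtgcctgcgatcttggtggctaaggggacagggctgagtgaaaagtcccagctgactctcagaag
Hopx downstream start, chr5:77095218-77095517: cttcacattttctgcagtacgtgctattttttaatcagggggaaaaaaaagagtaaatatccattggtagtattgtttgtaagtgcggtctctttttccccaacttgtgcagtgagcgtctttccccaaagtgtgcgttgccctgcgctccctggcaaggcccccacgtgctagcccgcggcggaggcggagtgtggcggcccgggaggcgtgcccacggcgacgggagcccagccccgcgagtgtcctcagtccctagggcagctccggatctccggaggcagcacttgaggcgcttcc

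The upstream window holds 1 CArG box, CCAAATAAGG, whose first base lies at -83 from the start. A CArG box occurs in 1.63% of the 32851 promoter windows in the table. The downstream window holds none, has 21 CpG dinucleotides against 8 in the upstream one, and has a GC content of 59.0% against 53.0%, where the median over all windows is 52.7%. Neither window holds the AP-1 motif TGANTCA, the STAT motif TTCNNNGAA, the forkhead motif GTAAACA or the T-box motif GGTGTGA on either strand. These occur in 7.81%, 8.3%, 3.65% and 3.98% of all windows. A match is a string of letters and does not show that a factor binds.

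Hopx was high on all 3 iTreg arrays and on WT replicate 1, and near background on WT replicates 2 and 3. On its brighter probe set, 1428662_a_at, the MAS5 signal was 912, 624 and 471 in iTreg replicates 1, 2 and 3, against 955 in WT replicate 1 and 36.9 and 22.8 in WT replicates 2 and 3. The 4 high arrays are the 4 with the Nrp- cell type label, and the lowest of them is 12.8 times the higher of the other two. By title the groups overlap, since WT replicate 1 has the highest value of all. In bulk RNA such as this, fewer cells with the transcript and less transcript per cell cannot be told apart.

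The mean of this probe set was 669 ± 224 in iTreg and 338 ± 534 in WT (SD, n = 3 each), so the SD in WT exceeds its mean. On the log2(signal + 16) scale used for all differences below, iTreg minus WT was 2.39, with an SD of 0.47 between iTreg arrays and 2.56 between WT arrays. Against WT replicates 2 and 3 alone, whose mean signal was 29.8, the iTreg difference was 3.87, a 22.4-fold ratio of mean signals. WT replicate 1 lay 0.55 above the iTreg mean, which is about the spread between iTreg arrays, and 4.42 above WT replicates 2 and 3. Within iTreg no order is read from the replicates, whose values span less than 1 log2 unit.

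The dimmer probe set, 1451776_s_at, showed the same split of arrays. Its signal was 93.6, 217 and 70.4 in iTreg, against 253 in WT replicate 1 and 25.6 and 3.26 in WT replicates 2 and 3. Its lowest Nrp- labelled array is 2.75 times the higher of the other two, and the difference between iTreg and WT replicates 2 and 3 was 2.20. The probe sets do not rank the iTreg arrays alike: the brighter one is highest in replicate 1 and the dimmer one in replicate 2, so that the ratio of their signals runs from 2.88 to 9.74 within iTreg. By its name ending, _s_at, the dimmer probe set may also match other transcripts.

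Background can be read from 27 bacterial control probe sets, none of which passed a signal of 28.5 on any array. They are called unspiked here on the assumption, not stated in the sources used, that no matching labelling spike was added. Hopx in WT replicate 3 lies below that level on both probe sets, and in WT replicate 2 below it on the dimmer one, so the size of each fold above depends on how low signals are handled. On the brighter probe set Hopx exceeded 94.3%, 91.8% and 89.4% of all gene probe sets on the iTreg arrays and 95.0% on WT replicate 1. On WT replicates 2 and 3 it exceeded 52.0% and 51.2%, the middle of each array.

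**Figure D1:**
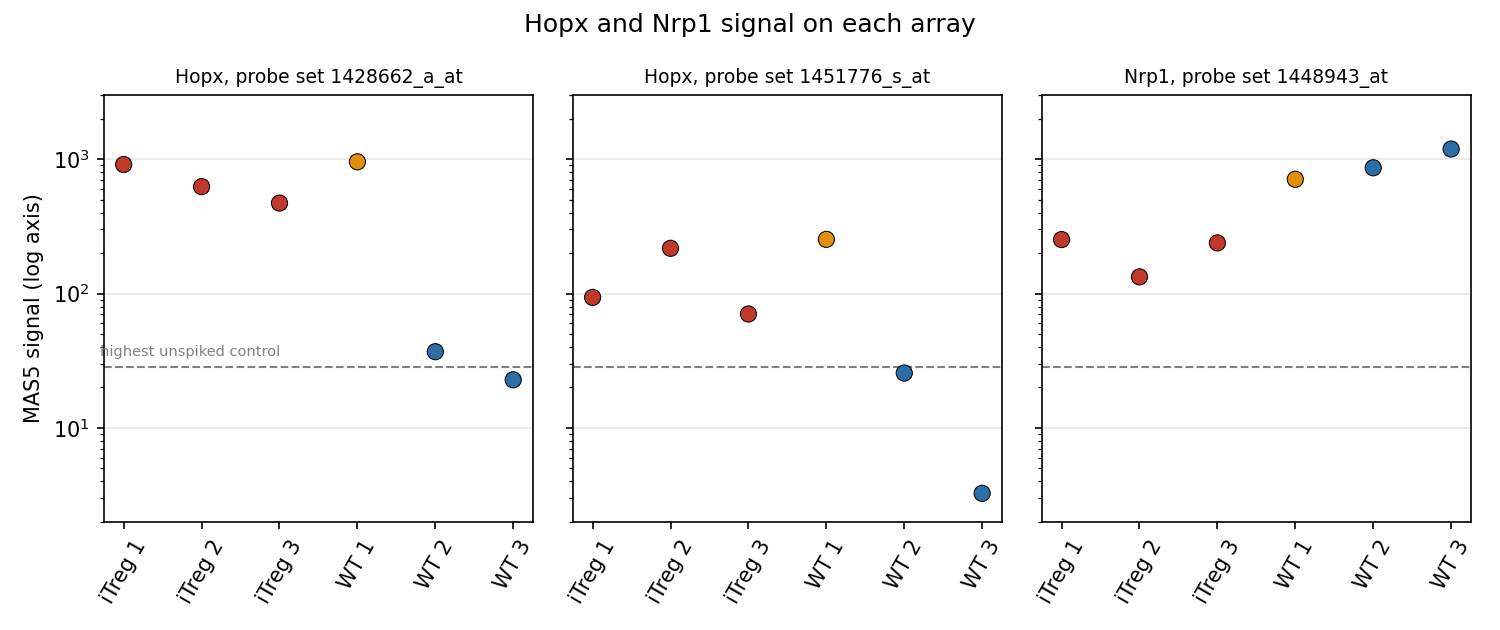
MAS5 signal (vertical log axis) of both Hopx probe sets and of 1 Nrp1 probe set on each of the 6 arrays (points; red iTreg, orange WT replicate 1, blue WT replicates 2 and 3), with a dashed line at 28.5, the highest signal of an unspiked control. Hopx puts WT replicate 1 (955 and 253) beside the iTreg, whereas Nrp1 (708) puts it beside the other WT arrays.

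The arrays were checked against their labels. Nrp1, the surface co-receptor that the Nrp label most likely refers to, had a signal of 252, 133 and 238 in iTreg on its brightest probe set, against 708 in WT replicate 1 and 862 and 1189 in WT replicates 2 and 3. All 4 Nrp1 probe sets were lower on every iTreg array than on every WT array, so the Nrp1 transcript on WT replicate 1 goes against its Nrp- label and with its title. Ikzf2, which encodes Helios, had on its brightest probe set 1588, 1215 and 1641 in iTreg, against 2275 in WT replicate 1 and 2215 and 2021 in WT replicates 2 and 3. A second Ikzf2 probe set was also lower on every iTreg array, but on the other one the groups overlapped, with 870.2, 615 and 514 in iTreg and 1815, 1468 and 319 in WT. Cd4 was high on all arrays, from 1928 to 3739 in iTreg and from 1497 to 2186 in WT. Foxp3, the gene that defines Treg, was measured by a single dim probe set, at 31.7, 54.6 and 15.6 in iTreg and 26.2, 45.7 and 9.16 in WT, with 1 iTreg and 2 WT arrays below 28.5.

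WT replicate 1 lay nearer the iTreg in some genes and nearer the other WT arrays in others. Of the genes whose iTreg arrays all lay on one side of WT replicates 2 and 3 with a mean difference of at least 2 log2 units, Hopx left out, 19 were higher and 28 lower in iTreg. WT replicate 1, which was not used to select them, lay nearer the iTreg mean in 13 of the 19 higher genes and in 7 of the 28 lower ones. On a scale where 0 is the mean of WT replicates 2 and 3 and 1 the iTreg mean, its median position was 0.59 over the higher genes and 0.30 over the lower ones. Hopx stood at 1.14. These counts are 68.4% of the higher and 25.0% of the lower genes. The choice of genes favours extreme values on WT replicates 2 and 3, which also set the zero of the scale. This by itself moves a left-out WT array toward the iTreg, so the counts and positions alone do not show a likeness to iTreg. No such position is given here for WT replicate 2 or 3 left out in its place. Without WT replicate 2 the shares were 88.1% and 47.0%, without WT replicate 3 that of lower genes was 47.6%, and with quantile normalization that of higher genes was 44.4%.

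The higher genes in which WT replicate 1 reached or passed 0.8 on this scale were the peptidase gene Naalad2 (1.39), the interferon-induced antiviral gene Rsad2 (1.17), the granzymes Gzma (1.03) and Gzmb (0.84), the Wnt pathway inhibitor Nkd2 (0.97), the GABA receptor gene Gabbr1 (0.88) and Sync (0.87). In Gabbr1 WT replicate 2 (log2 level 9.36) lay with WT replicate 1 (9.39), and WT replicate 3 alone (5.64) was low. At the other end of the same list stood the phosphodiesterases Pde3b and Pde5a (0.39 each), the ceramide synthase Cers6 (0.37) and the inhibitory receptor Klrg1 (0.44). Among lower genes the ectoenzymes Nt5e (-0.02) and Entpd1 (-0.04) left WT replicate 1 fully with the other WT arrays, and Nrp1 nearly so (0.23).

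Of 10916 genes tested, Hopx had the largest difference between iTreg and WT replicates 2 and 3 (3.87, followed by 3.38 for Pde3b and 3.03 for Rsad2). It was also first in the difference between the 4 Nrp- labelled arrays and the other two (4.01, followed by 3.37 for Fos and 3.16 for Rsad2). It was second to Fos, at 4.92, in WT replicate 1 minus WT replicates 2 and 3. By title, iTreg minus WT, it had rank 3, behind Pde3b (2.94) and the heat shock gene Hspa1b (2.47). Its SD of 2.56 between WT arrays was the second largest of all genes, after 2.84 for Fos, whereas its SD of 0.47 between iTreg arrays was close to the median of 0.43. These ranks describe how Hopx was chosen. WT replicate 1 was not the array farthest from its group: 27 genes lay at least 2 log2 units above and 10 below the mean of the other WT arrays, against 102 and 130 for iTreg replicate 3 within iTreg and 16 and 96 for WT replicate 3.

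**Figure D2:**
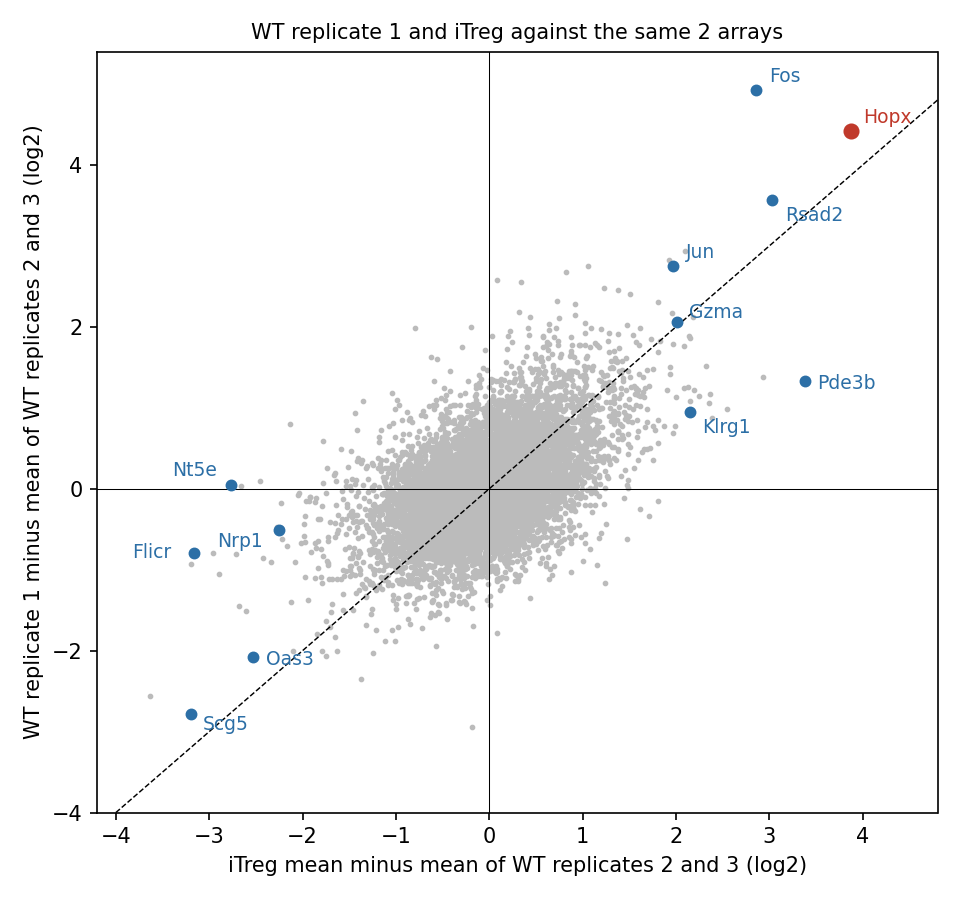
For each of 10916 genes (grey points), the iTreg mean (horizontal) and WT replicate 1 (vertical), each minus the mean of WT replicates 2 and 3, in log2 units; named genes are coloured and the dashed line marks equality. Both axes share the same 2 arrays, so the slope of the cloud is no result. Hopx (3.87, 4.42) and Rsad2 (3.03, 3.56) lie at the upper end of the line, Fos (2.86, 4.92) above it, and Nt5e (-2.77, 0.05) far from it.

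The genes with the profile most like that of Hopx were named by the root mean square difference between centred log2 profiles over the 6 arrays. A flat profile stands at 1.92 by this measure, and 4 genes fell under 1. The closest was Rsad2 (0.72), with 239.6, 388 and 74.4 in iTreg, 288 in WT replicate 1 and 5.24 and 15.2 in WT replicates 2 and 3. Then came Nkd2 (0.90), with 162, 138 and 100.4 in iTreg, 125 in WT replicate 1 and 23.0 and 11.0 in the other two. Both genes separate the same 4 arrays from the same 2, with smaller gaps than Hopx.

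Naalad2 (0.98) had 644, 565 and 186 in iTreg, 739.6 in WT replicate 1 and 181 and 33.9 in the other WT arrays, so that its gap is narrow at WT replicate 2. Ppp1r15a (0.98), a stress-induced subunit of protein phosphatase 1 also called Gadd34, had 350, 239 and 216 in iTreg, 375 in WT replicate 1 and 69.1 and 58.0 in WT replicates 2 and 3. The next were H2-Q5, a class I histocompatibility gene of a family of near-identical members (1.04), the histone gene H3f3b (1.04), the lectin receptor gene Cd302 (1.05), the calcium channel subunit Cacna2d2 (1.10), the intermediate filament gene Sync (1.11), Dennd4c (1.11), the protease inhibitor Ctla2a (1.14) and the noncoding Rab26os (1.14). On all 12 the 4 Nrp- labelled arrays lay above the other two, which the choice by likeness brings about.

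Other probe sets bear on these names. Of the 12 genes 5 had 1 probe set, and the other 7 had 12 further probe sets, whose difference between the 4 Nrp- labelled arrays and the other two ran from -0.20 to 1.48, with 9 positive and 3 negative. Those of Rsad2 gave 1.24 and 0.90 and that of Naalad2 gave 1.48, while Nkd2 gave 0.07, 0.32 and 0.55 and the other probe set of Cd302 gave -0.12. The list is unstable: without WT replicate 2 only 3 of the 12 names stayed among the closest 12, and with Pearson's r as the measure 3 did. None of the 11 like genes with a promoter in the table has a CArG box there.

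The profiles most opposite to that of Hopx were led by Scg5, a secretory chaperone gene (0.84 from the mirrored profile), with 46.1, 43.1 and 11.5 in iTreg, 46.3 in WT replicate 1 and 382 and 442 in WT replicates 2 and 3. Oas3, an interferon-induced antiviral enzyme, followed (0.93), with 1.94 to 2.64 in iTreg, 8.84 in WT replicate 1 and 113 and 69.1 in the other two. Rsad2 and Oas3, both of the interferon response, thus lay on opposite sides across the same arrays. Oas3 was below 28.5 on every Nrp- labelled array. The interferon response as a set was not examined here, so this pair does not describe it. The Wnt effector Tcf7l2 (1.02) and the adhesion gene Epcam (1.08) completed the named ones. The 3 further probe sets of Tcf7l2 gave differences of 0.01, 0.08 and 0.09 between the Nrp- labelled arrays and the other two, against -2.08 on the one used.

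**Figure D3:**
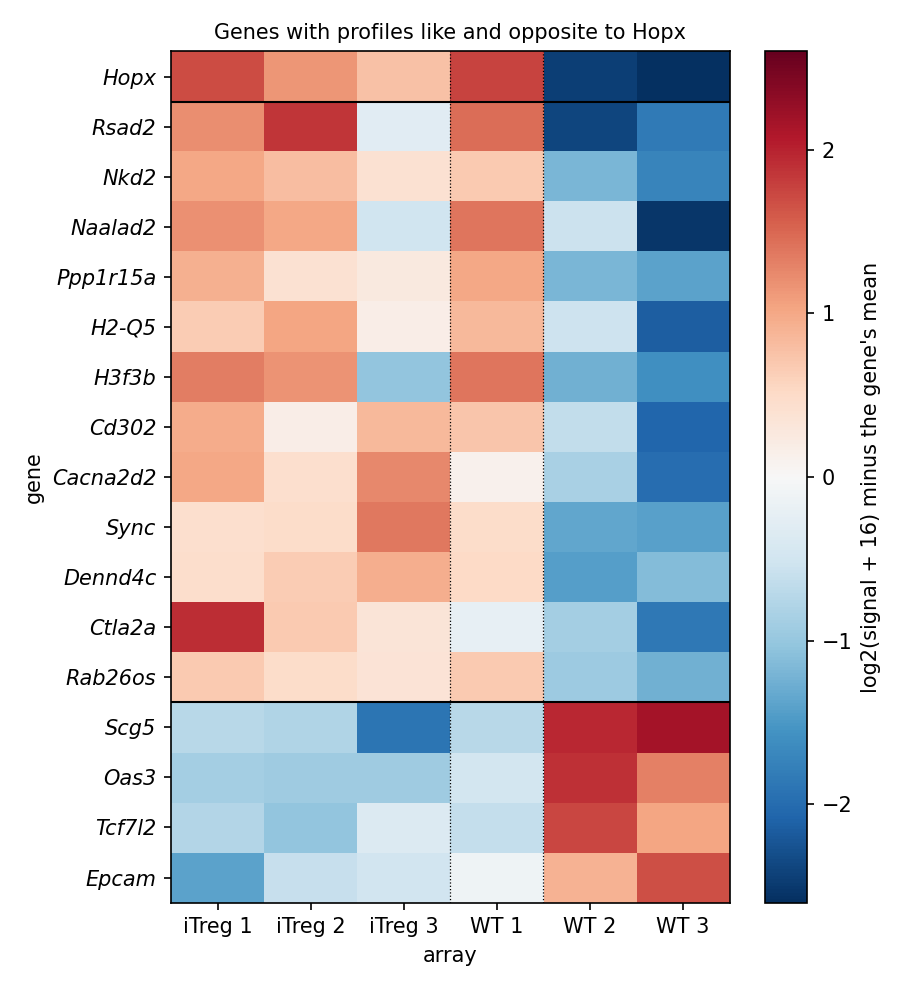
Colour gives log2(signal + 16) minus the gene's own mean for Hopx (top row), the 12 genes closest to its profile and 4 of the 5 most opposite ones, on each array (columns, iTreg left). The iTreg columns and WT replicate 1 share a sign in most rows of the upper block, with exceptions at iTreg replicate 3 for Rsad2, Naalad2 and H3f3b and at WT replicate 1 for Ctla2a.

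Hopx is known to hold down AP-1 genes in mouse induced Treg. The comparison of iTreg with WT does not test such an action, because WT replicate 1 had Hopx at 955 and few genes were called at all. Of 12 subunits and related small Maf genes 9 were tested, and limma called 0 higher and 0 lower in iTreg at an adjusted p under 0.05 (0 in each direction also at an unadjusted p under 0.05). Over all genes 0.0275% were called, all of them lower, and 3.0% were higher and 4.58% lower at the unadjusted threshold. The median difference of the 9 was 0.36, against -0.03 over all genes, with 7 positive and 2 negative.

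Fos, an AP-1 subunit induced within minutes of stimulation or cell stress, had signals of 2357, 421 and 3.18 in iTreg, 1112 in WT replicate 1 and 22.2 and 20.5 in WT replicates 2 and 3. It thus shared with Hopx the high WT replicate 1, but it was at background in iTreg replicate 3, where Hopx was 471. The iTreg minus WT difference was 1.22 ± 1.54 (SE, limma adjusted p = 0.875), and leaving out iTreg replicate 1 turned it to -0.35. Jun had 1553, 2087 and 243 in iTreg, 1610 in WT replicate 1 and 147 and 342 in the other two, a difference of 1.06 ± 0.82 (SE, limma adjusted p = 0.812). On its other probe set Jun had 765, 864 and 95.2 in iTreg, 649 in WT replicate 1 and 56.0 and 73.2 in WT replicates 2 and 3, so that iTreg replicate 3 lay above WT replicates 2 and 3 there and between them on the brighter one. Fosb had 204, 23.6 and 11.1 in iTreg, 98.7 in WT replicate 1 and 18.4 and 8.40 in WT replicates 2 and 3.

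The other tested members did not share the high WT replicate 1 of Fos and Jun to that degree. Jund had 5773, 4070 and 7496 in iTreg and 4185, 3706 and 5402 in WT, and Junb 61.6, 52.6 and 20.6 in iTreg and 76.8, 35.8 and 20.9 in WT. A second, dimmer Jund probe set had 53.5, 51.7 and 71.7 in iTreg and 50.2 in WT replicate 1. It had 17.5 and 16.6 in WT replicates 2 and 3, and so split the arrays as Hopx did. Batf, which pairs with Jun proteins in activated T cells, had 479, 381 and 27.3 in iTreg and 564, 368 and 788 in WT, a difference of -1.46 ± 0.73 (SE, limma adjusted p = 0.7). Fosl2 differed by -0.22, and the small Maf genes Maff and Mafk by 0.41 and 0.29. On the probe sets used for the fit, Maff and Mafk were the 2 of the 9 in which all Nrp- labelled arrays lay above the others. This pattern was found in 6.51% of all genes, and in Mafk the gap was narrow (144 against 143). The AP-1 list had a mean level of 8.58, 7.86 and 6.73 in iTreg, 8.38 in WT replicate 1 and 6.83 and 7.25 in WT replicates 2 and 3. The lowest was iTreg replicate 3, with Hopx at 471, close to WT replicate 2, with Hopx at 36.9. The highest were iTreg replicate 1 and WT replicate 1, with Hopx at 912 and 955. A link between these levels and Hopx was not tested.

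**Figure D4:**
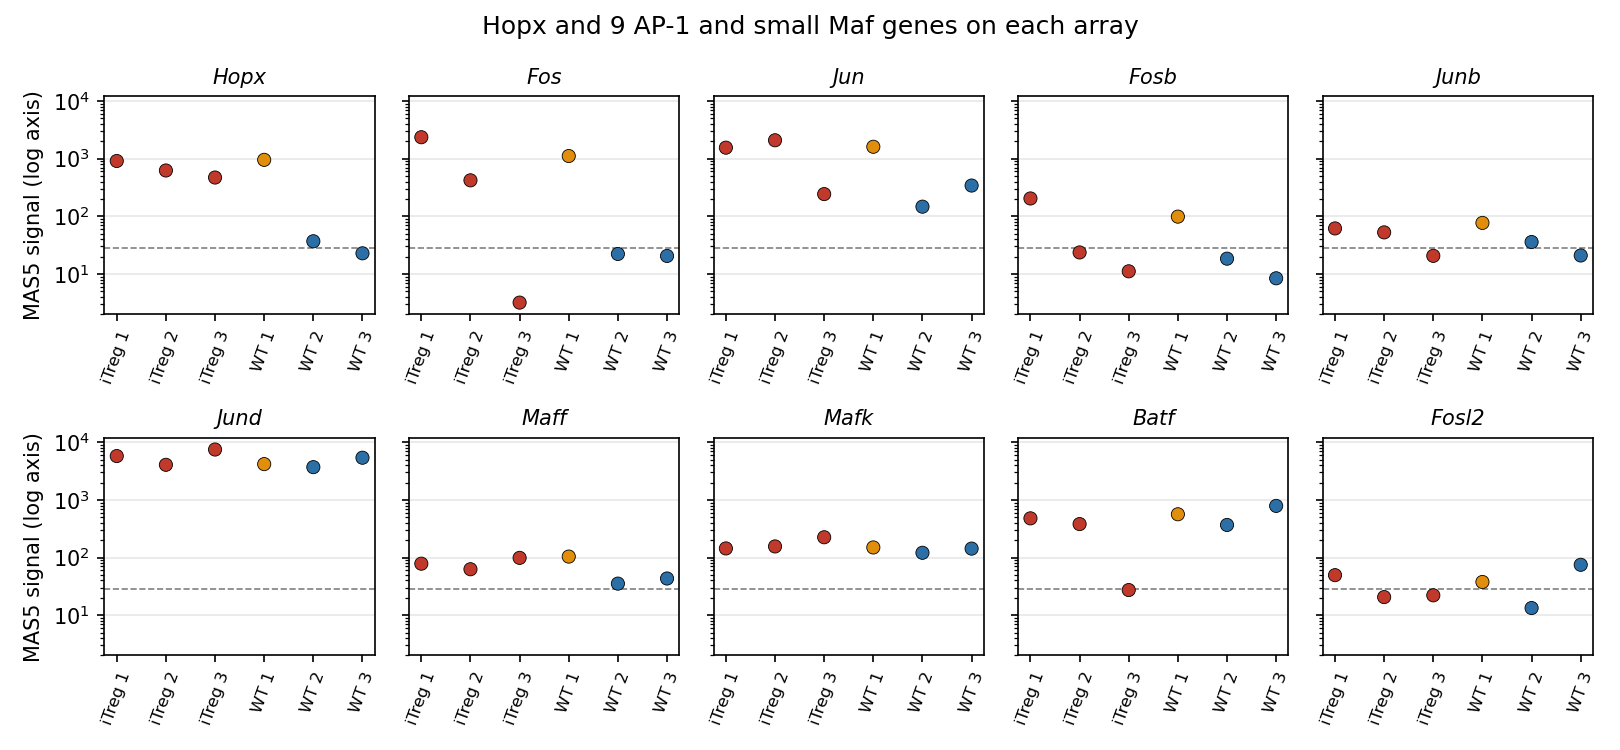
MAS5 signal (vertical log axis) of Hopx and of the 9 tested AP-1 and small Maf genes on each array (points; red iTreg, orange WT replicate 1, blue WT replicates 2 and 3; dashed line, highest unspiked control). Fos, Jun and Fosb share the high WT replicate 1 with Hopx but are low in iTreg replicate 3 (3.18, 243 and 11.1).

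Partners of Hopx gave no called gene, which with 3 arrays per group does not show equal levels. Of 12 tested genes for SRF, its cofactors, histone deacetylases and other binding partners, limma called 0 in either direction. At an unadjusted p under 0.05 there were also 0, against 3.0% higher and 4.58% lower over all genes. The median difference was 0.34, against -0.03 over all genes, with 9 positive and 3 negative. Srf had 1709, 978 and 2798 in iTreg and 814, 1160 and 1565 in WT, with groups that overlap, a difference of 0.55 ± 0.38 (SE, limma adjusted p = 0.786). The deacetylase genes Hdac1 and Hdac2 differed by -0.59 and -0.51 and Epc1, a chromatin protein that binds Hopx, by 0.42. Epc1 was higher on every iTreg array than on every WT array, as in 5.1% of all genes. Its 2 other probe sets gave -0.05 and 0.51.

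Targets of SRF gave no called gene either. The median difference of the 22 tested was 0.04. At an unadjusted p under 0.05, 0 were higher and 1 was lower, against 3.0% and 4.58% over all genes. The 1 was Ier2, an immediate early gene, with 61.7, 74.4 and 56.3 in iTreg and 137, 123 and 170.4 in WT, a difference of -0.99 ± 0.37 (SE, limma adjusted p = 0.598). Egr1, Egr2 and Egr3, zinc finger factors induced through the T cell receptor, were the 3 members in which all Nrp- labelled arrays lay below the other two, a pattern found in 8.17% of all genes. For iTreg minus WT the other probe set of Egr2 gave -0.73 and that of Egr3 0.33, against -0.64 and -0.78 on those used. Egr1 had 1455, 734 and 978 in iTreg, 1039 in WT replicate 1 and 1852 and 2755 in WT replicates 2 and 3. It was lower on the 4 arrays where Hopx was high, and a link to Hopx was not tested.

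Of genes that AP-1 drives in T cells, 5 were tested and limma called 0. At an unadjusted p under 0.05, 0 were higher and 2 were lower, against 3.0% and 4.58% over all genes. Il2ra, the alpha chain of the IL-2 receptor and a Treg hallmark, had 1169, 2191 and 2256 in iTreg and 3537, 4656 and 5859.7 in WT, a difference of -1.35 ± 0.32 (SE, limma adjusted p = 0.228). Its groups do not overlap, as in 7.78% of all genes with lower iTreg. Tnf differed by -1.07, Ifng by 1.16 and Tnfsf8 by 0.39. Il2 itself did not pass the filter on low signals.

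Among 18 tested genes of Th1 effector and memory cells, where Hopx is also known, limma called 0, with 3 higher and 0 lower at an unadjusted p under 0.05 against 3.0% and 4.58% over all genes. The median was 0.26, with 9 positive and 9 negative. The 3 were Klrg1 (1.83 ± 0.33 SE, limma adjusted p = 0.0996), the transcription factor Eomes (1.37 ± 0.42 SE, limma adjusted p = 0.457) and Gzmb (1.51 ± 0.62 SE, limma adjusted p = 0.622). Gzmb had 215, 76.9 and 442 in iTreg, 154 in WT replicate 1 and 32.1 and 36.3 in WT replicates 2 and 3, and Gzma had 229, 87.5 and 94.9 in iTreg, 131 in WT replicate 1 and 2.29 and 51.6 in the other two. In 4 of the 18, Gzma, Gzmb, Klrg1 and Id2, the 4 Nrp- labelled arrays lay above the others, as in 6.51% of all genes. Tbx21, which encodes the Th1 regulator T-bet, averaged 13.1 ± 9.30 in iTreg and 27.4 ± 20.9 in WT (SD, n = 3 each) and differed by -0.52.

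Of 24 tested homeobox genes limma called 0, and the median was 0.03. At an unadjusted p under 0.05, 2 were higher and 1 was lower, against 3.0% and 4.58% over all genes. These were Cers6, a ceramide synthase with a homeobox-like domain (2.09 ± 0.43 SE, limma adjusted p = 0.153), the chromatin organiser Satb1 (1.01 ± 0.30 SE, limma adjusted p = 0.431) and the repressor Tgif1 (-0.82 ± 0.36 SE, limma adjusted p = 0.639). The groups do not overlap in any of the 3, as in 5.1% of all genes with higher and 7.78% with lower iTreg. Satb1 had 3839.8, 2511 and 5476 in iTreg, against 1757 in WT replicate 1, which lay with the other WT arrays at 1828 and 1993. Zhx2 differed by -0.92. In Zeb1, Hmbox1 and Cers6 the 4 Nrp- labelled arrays lay above the other two (6.51% of all genes), but in each WT replicate 1 lay below every iTreg array, unlike in Hopx.

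The Treg identity list held the 1 called member, Nt5e, the adenosine-producing CD73, which fell in iTreg (-2.79 ± 0.36 SE, limma adjusted p = 0.0235). The call was lost without any single array other than iTreg replicate 2 (limma adjusted p from 0.0725 to 0.23). Of the 22 tested genes of this list, 1 was higher (Klrg1) and 11 were lower at an unadjusted p under 0.05. The shares over all genes were 3.0% and 4.58%, and the list median was -0.58. The list was chosen with the outcome of these arrays known, so its direction is no independent evidence. Nt5e had 90.0, 212 and 92.4 in iTreg, and 960.3 in WT replicate 1 was close to 836 and 1022 in the other WT arrays. The ectonucleotidase Entpd1 (-2.49), Nrp1 (-2.08) and the signalling suppressor Socs2 (-2.01) followed with limma adjusted p-values of 0.0562, 0.0758 and 0.0758, and each was lower on every iTreg array than on WT replicate 1. Other probe sets of Nt5e gave -2.64 and -0.13, those of Entpd1 -0.47 and -0.17 and those of Socs2 -1.64 to -0.13. Those of Nrp1 gave -2.66 to -1.99. With the mean of probe sets Entpd1 was -1.04, Socs2 -0.92, Nt5e -1.86 and Nrp1 -2.24.

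Of the genes of other tissues that express Hopx, none of those tested showed its split of arrays. Of 13 names for gut stem cells, lung alveolar type I cells and heart, 4 passed the filter on low signals and limma called 0. At an unadjusted p under 0.05, 0 were higher and 1 was lower, against 3.0% and 4.58% over all genes. This was Lrig1, a growth factor signalling brake, with 711, 598 and 503 in iTreg and 896, 1647 and 1985 in WT (-1.24 ± 0.33 SE, limma adjusted p = 0.339). Its groups do not overlap, as in 7.78% of all genes with lower iTreg, and its 2 other probe sets gave -0.95 and 0.18. Tert (1.12), Ager (0.34) and Bmi1 (-0.10) had overlapping groups. Between the Nrp- labelled arrays and the others the median of the 4 was 0.64, against -0.03 over all genes. Tert gave 1.32 and Ager 1.28 there, but their other probe sets gave -0.80 and -0.62 for iTreg minus WT. In 0 of the 4 did all Nrp- labelled arrays lie above the others, and in 1, Lrig1, all lay below. Over all genes these patterns were found in 6.51% and 8.17%.

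Of the 10 annotated genes nearest to Hopx on the chromosome, 5 on each side, 2 were named on the arrays. Srp72, of the signal recognition particle, had 555, 769 and 453 in iTreg and 877, 554 and 752 in WT and differed by -0.30 ± 0.31 (SE, limma adjusted p = 0.855). Thegl was at background on all arrays. Neither showed the split of Hopx, and the antisense neighbour Hopxos was not analysed here.

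Most markers of other cells stayed at or below the highest unspiked control, with exceptions such as Pecam1, Xbp1, Eomes and Epcam. Of 7 natural killer and innate lymphoid markers on the array, 4 exceeded 28.5 on some array and Ncr1, Klrk1 and Klra8 on none. Their summed signal was 311 to 532 in iTreg and 129 to 264 in WT, with WT replicate 1 the highest of WT, as for Hopx, and most of it came from Eomes and Gzma, which T cells also express. Of 6 granulocyte and mast cell markers 2 exceeded 28.5, S100a8 and S100a9, and the sum was 75.3 to 195 in iTreg and 35.3 to 55.1 in WT. Of 10 myeloid and dendritic markers 4 exceeded 28.5, with sums of 221, 168 and 117 in iTreg. They summed to 129.7 in WT replicate 1 and to 83.9 and 109 in WT replicates 2 and 3. This sum split the arrays as Hopx did, by a narrower gap. Of 7 B cell markers 3 exceeded 28.5, with sums of 94.6 to 133 in iTreg and 99.0 to 137 in WT. In the granulocyte and B cell sums WT replicate 1 (44.8 and 99.0) did not exceed both other WT arrays.

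Among 8 epithelial markers Epcam alone exceeded 28.5 on any array, and Lgr5, Krt8 and Vil1 were among the 7 that did not. The epithelial sum was 82.7 to 119.9 in iTreg and 154 to 404 in WT, opposite in direction to Hopx. The 2 CD8 markers summed to 101, 225 and 104 in iTreg. Their sum was 107 in WT replicate 1 and 73.5 and 73.2 in WT replicates 2 and 3. It thus split the arrays as Hopx did, by a narrower gap. Of 4 plasma cell markers Xbp1, which T cells also use, alone exceeded 28.5, and the sum was 297 to 617 in iTreg and 549.6 to 896 in WT. Of 7 stromal and endothelial markers 3 did, led by Pecam1 (345 to 735 in iTreg and 341 to 385 in WT), with sums of 386 to 847 in iTreg and 421 to 449 in WT. Of 2 erythroid markers Alas2 did, with sums of 16.8 to 86.6 in iTreg and 44.0 to 55.5 in WT. The part of other cells in the Hopx signal was not tested.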

How the data were processed

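The authors deposited 1 MAS5 intensity signal per probe set and array, on a linear scale, per the submitters' processing notes, which give no version; the 2% trimmed mean is 150.0 on every array, so they were scaled alike. RNA was extracted with Trizol and biotin-labelled, per the labels' protocols. Genome build and detection calls are not given in the sources used here. Groups and replicate numbers come from the titles. Median signals ranged from 24.3 to 27.5 in iTreg and from 21.1 to 32.3 in WT; the number of arrays limits the precision.

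Symbols came from the platform annotation (34945 probe sets with 1 symbol, 932 with several, 9160 with none and not named), updated through RefSeq gene IDs except for 204. Signals were transformed as log2(signal + 16). Of each gene's probe sets the brightest on average was used, and genes at or above the 40th percentile (4.99) were tested with limma 3.58.1 in R 4.3.3 (lmFit, eBayes with trend, Benjamini-Hochberg at 0.05, two-sided), as iTreg minus WT. On simulated data the fit recovered 38.8% of planted changes of 1 log2 unit, 98% of those of 2 and 100% of those of 3 and 4. The simulation gave each gene the same spread in both groups, smoothed over level, unlike the spread of Hopx.

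The members, lists, named genes and tests were chosen with earlier results of these data known. Named were the 12 most like and 5 most opposite profiles (predicted genes unnamed), 4 members per list with the smallest p, all AP-1 members tested, 5 neighbours on each side, and Nrp1, Foxp3, Ikzf2 and Cd4; others were named after their values were seen. Alternatives were other pseudocounts, scalings, filters and probe set rules, no trend, a replicate block, grouping by cell type label, and arrays left out.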

Additional observations from a re-analysis of the deposited data

How the results depend on the processing

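Hopx kept its direction under every alternative run. The difference between iTreg and WT replicates 2 and 3 was 4.43 with a pseudocount of 1, 2.93 with 64 and 3.03 with the mean of probe sets, and that between Nrp- labelled and other arrays was 4.57, 3.06 and 3.24. Without single arrays they ranged from 3.62 to 4.09 and from 3.78 to 4.23, and iTreg minus WT ranged from 1.55 to 3.87. Hopx ranked first in both under each scaling, pseudocount and filter, and second with the mean of probe sets.

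Over all genes, limma called 3 lower and 0 higher. It called 1 higher with median scaling, with groups by cell type label and without WT replicate 1; in the last pair of settings the gene was Hopx, which was chosen on this pattern, so that call is no evidence. It called 0 lower with a pseudocount of 1, no filter, groups by cell type label or both arrays with label doubts left out. Without single arrays it called 0 to 1 in each direction. At an unadjusted p under 0.05, 328 higher and 500 lower genes became 423 and 282 with median scaling. There were 499 higher with no filter, and 310 lower with the 60th percentile filter, 327 by cell type label and 328 without both doubtful arrays. Without single arrays 218 to 446 were higher and 352 to 704 lower.

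The 1 list member called lower was lost (0) with a pseudocount of 1, no filter, grouping by cell type label and without both doubtful arrays, became 2 without a trend, and ranged from 0 to 1 without single arrays. List members higher at an unadjusted p under 0.05, 5 in number, became 8 with quantile normalization, median scaling or the replicate block and 10 by cell type label, with 4 to 10 without single arrays. The share of higher genes with WT replicate 1 nearer iTreg ranged from 48.5% to 88.1% without single arrays and that of lower genes from 15.0% to 47.6%. Of the 12 like genes 6 were shared with a pseudocount of 1 or the mean of probe sets, 4 without both doubtful arrays, 3 by Pearson's r, and 3 to 10 without single arrays.

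Titles share replicate numbers, and deviations of same-numbered arrays correlated at 0.169, 0.046 and 0.13. Between arrays of different number the correlations ran from -0.172 to 0.053. Whether the numbers mark arrays handled together is not given by the labels and was not tested. With the replicate block limma called 3 lower and 0 higher. Of 40 named genes 7 changed sign somewhere, none of them called. Without single arrays Ager ranged from -0.70 to 1.02, Bmi1 from -0.27 to 0.02, Fos from -0.35 to 3.13, Fosb from -0.48 to 1.09, Fosl2 from -0.63 to 0.18, Foxp3 from -0.11 to 0.54 and Junb from -0.26 to 0.41. With the mean of probe sets Ager was -0.14, Bmi1 0.46 and Fosl2 0.02, and Bmi1 was 0.02 with median scaling. Nt5e lost its call with a pseudocount of 1 (adjusted p = 0.0552), no filter (0.0636), the mean of probe sets (0.0986), groups by cell type label (0.656), without both doubtful arrays (0.289), and without any single array but iTreg replicate 2 (limma). The causes were not tested.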
